A study of Homo sapiens with 12 samples.

Results

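The secretory pathway genes described here are 49 listed genes whose products carry newly made proteins into the endoplasmic reticulum, cut and glycosylate them, fold them and ship them towards the Golgi. All 49 were found by symbol in the RefSeq gene table, which lists 19970 protein-coding genes, and all 49 were among the 17152 genes tested. They were measured by CUT&RUN for H3K27ac, acetylation of lysine on histone H3 that marks active promoters and enhancers, in RPMI 8226, an established human multiple myeloma cell line. The groups were CEBPB knockout cells given 10 µM dexamethasone for 2 h, CEBPB knockout cells given DMSO, scramble control cells given 10 µM dexamethasone for 2 h, and scramble control cells given DMSO, with 3 libraries in each and 12 in all. CEBPB encodes the transcription factor C/EBPβ, and dexamethasone is a synthetic glucocorticoid used to treat myeloma. Whether the CEBPB knockout is 1 clone or several was not given, nor whether libraries of 1 group were grown as separate cultures. The p-values therefore measure the spread between these libraries, which may be technical.

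A plasma cell secretes large amounts of antibody, and its endoplasmic reticulum is enlarged to do so. The signal recognition particle binds a nascent secretory protein and brings it to a receptor on the membrane, where the SEC61 channel lets the chain through. Signal peptidase removes the signal sequence, oligosaccharyltransferase adds sugar chains, protein disulphide isomerases form the disulphide bonds, and COPII-coated vesicles carry the folded product away. Myeloma is a malignancy of plasma cells, and the unfolded protein response, with the transcription factor XBP1 as one of its arms, is known to control many genes of this pathway.

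The quantity measured was the covered length, that is the kilobases under deposited broad peaks from 25 kb before to 25 kb after the span of a gene. A library held between 41164 and 56421 peaks, which covered between 48.0 and 66.4 Mb. The covered total was 54.4 ± 3.96 Mb in knockout cells with dexamethasone and 58.2 ± 5.48 Mb in knockout cells with DMSO (SD, n = 3 each). In scramble cells it was 52.7 ± 6.19 Mb with dexamethasone and 58.9 ± 6.81 Mb with DMSO (SD, n = 3 each). The files hold no read counts, so the depth of each library is unknown. All 10 plasma cell markers were covered in every library, with a median of 8.14 kb and a sum of 83.8 kb, and XBP1 itself averaged 9.10 kb. Of the other marker lists, 4 of 5 mature B cell, 4 of 6 T cell and 5 of 6 myeloid markers were also covered in every library, with medians of 5.85, 1.45 and 3.81 kb. Their sums were 29.2, 18.5 and 29.1 kb over these shorter lists. The T cell markers CD3E and CD2, the mature B cell marker MS4A1 and the myeloid marker MPO were at 0 in some libraries. CIITA (mature B cell), CSF1R and SPI1 (myeloid) and CD5 (T cell) averaged 11.6, 10.7, 8.86 and 10.1 kb, above the plasma cell median. The plasma cell marker SLAMF7 averaged 3.45 kb, below the medians of the mature B cell and myeloid lists.

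H3K27ac peaks lay within 25 kb of every secretory pathway gene in every library. All 49 genes had covered bases in 12 of 12 libraries, as did 88.8% of all tested genes. Strong peaks, with a −log10 q of at least 5, lay within 25 kb of all 49 in 12 of 12 libraries and of 76.5% of all tested genes. The median gene of the 49 had a mean covered length of 5.25 kb, against 3.84 kb over all tested genes and 4.36 kb over the 15232 genes covered in every library. The windows had similar lengths, with a median of 81.3 kb for the 49 genes and 77.3 kb for all tested genes. The median coefficient of variation over the 12 libraries was 21.8% for the 49 genes and 24.6% for all tested genes. A covered length belongs to a window and not to a gene alone, since only 8 of the 49 windows held no other protein-coding gene of the table, and the windows of SAR1B and SEC24A overlapped because these genes lie 15554 bp apart.

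**Figure D1:**
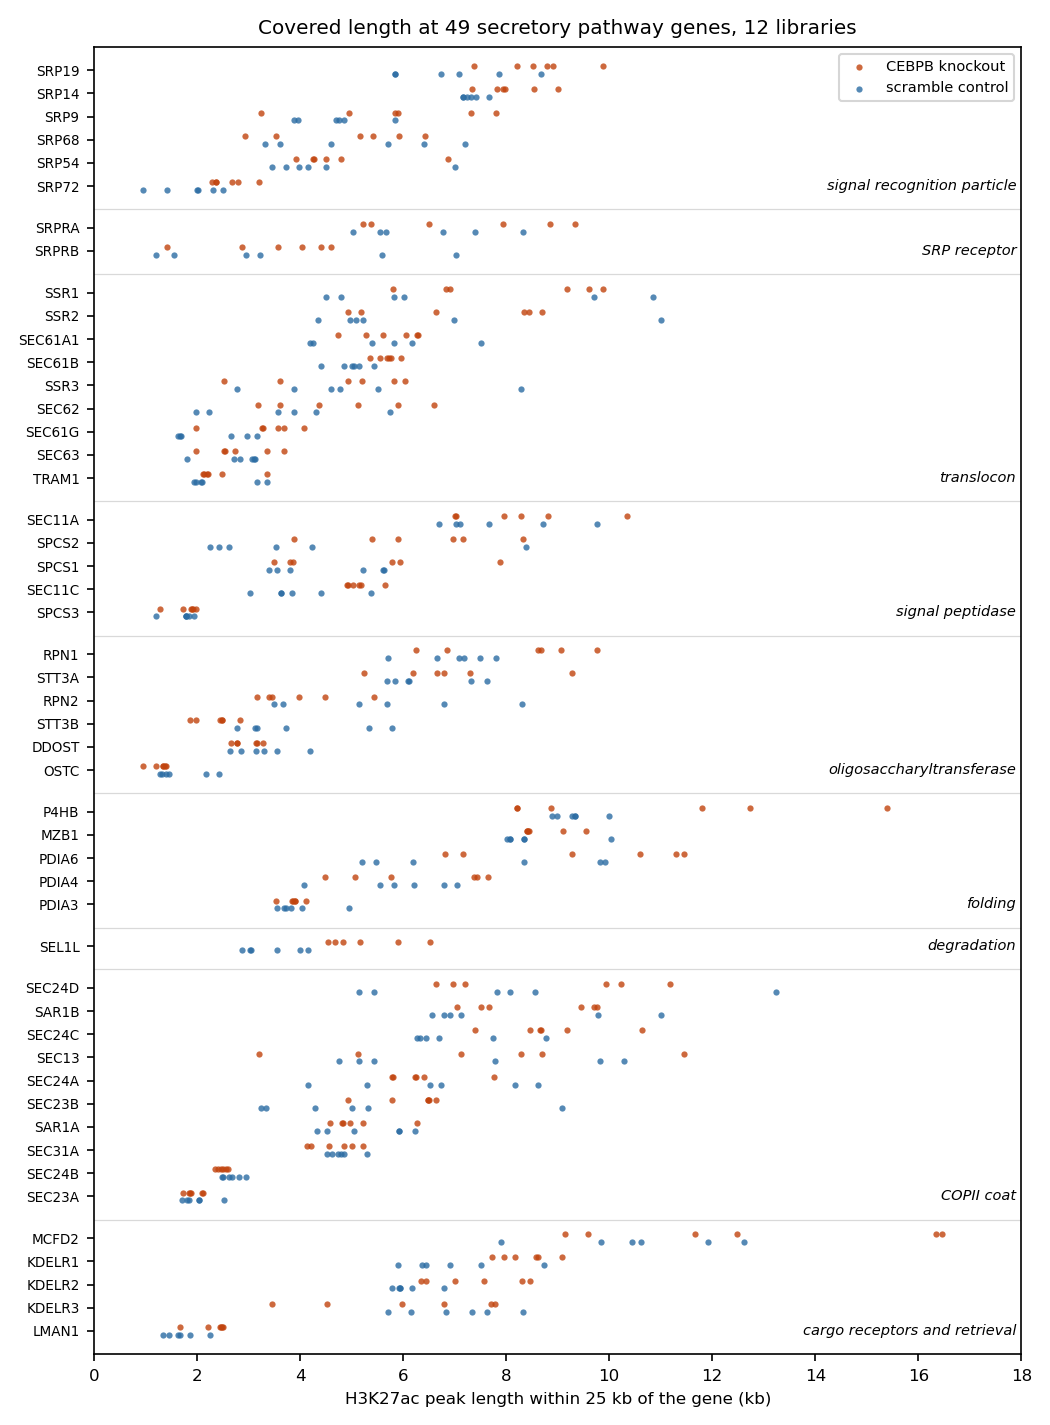
H3K27ac covered length in kb within 25 kb of each of the 49 genes, 1 point per library, with the 6 CEBPB knockout libraries drawn above the 6 scramble libraries of the same gene and genes grouped by role. Means run from 1.47 kb at OSTC to 11.6 kb at MCFD2, and SEL1L has its 6 knockout points to the right of its 6 scramble points.

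The genes of the signal recognition particle and its receptor spanned a wide range. Within the particle, SRP19 had the longest coverage at 7.81 ± 1.26 kb and SRP72 the shortest at 2.24 ± 0.604 kb (SD, n = 12 each). SRP14, which with SRP9 forms the part that slows translation, was among the steadiest of the 49 genes, between 7.16 and 9.01 kb with a coefficient of variation of 7.54%. SRP9 had 5.25 ± 1.36 kb, and its strongest peak had a mean fold enrichment of 9.18 ± 0.794, at the top of the 49 genes beside SRPRB with 9.17 ± 0.597 (SD, n = 12 each). SRPRA, the receptor subunit that meets the particle, had 6.83 ± 1.51 kb, while SRPRB, which anchors it in the membrane, had 3.53 ± 1.74 kb (SD, n = 12 each). SRPRB was the most variable of the 49 genes, with a coefficient of variation of 49.2% and libraries from 1.20 to 7.03 kb.

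Among the translocon genes, SSR1, a subunit of the translocon-associated protein complex, had the longest coverage at 7.50 ± 2.22 kb and TRAM1 the shortest at 2.43 ± 0.544 kb (SD, n = 12 each). SEC61A1, which encodes the pore of the channel, had 5.63 ± 0.947 kb, and its partners SEC61B and SEC61G had 5.33 ± 0.450 and 2.80 ± 0.863 kb (SD, n = 12 each). SEC61B was steady with a coefficient of variation of 8.45%, against 30.8% for SEC61G. The signal peptidase genes ran from 8.04 ± 1.18 kb at SEC11A, a catalytic subunit, to 1.75 ± 0.250 kb at SPCS3 (SD, n = 12 each). SPCS3 had 1 peak in its window in each library, and that peak accounted for all of its covered length.

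Oligosaccharyltransferase had the lowest median of the 9 role groups, 3.96 kb over its 6 genes. RPN1 had 7.60 ± 1.22 kb, the longest of these genes, and OSTC 1.47 ± 0.413 kb, the shortest of all 49 (SD, n = 12 each). The catalytic subunits STT3A and STT3B had 6.68 ± 1.09 and 3.17 ± 1.23 kb (SD, n = 12 each). The 5 folding genes had the highest median of the role groups, 8.46 kb. P4HB, a protein disulphide isomerase, had 10.1 ± 2.15 kb and PDIA3 had 3.91 ± 0.368 kb (SD, n = 12 each). MZB1, a plasma cell and marginal zone B cell protein that helps assemble antibody, had 8.60 ± 0.628 kb (SD, n = 12), with all 12 libraries between 8.02 and 10.0 kb and a coefficient of variation of 7.30%. SEL1L, the adaptor of the HRD1 complex that sends misfolded proteins for degradation, had 4.36 ± 1.15 kb (SD, n = 12).

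The 10 COPII coat genes ran from SEC24D at 8.37 ± 2.4 kb to SEC23A at 1.96 ± 0.222 kb (SD, n = 12 each). SEC24B, another of the cargo-binding SEC24 genes, had the lowest coefficient of variation of all 49 genes, 6.63%, around a mean of 2.58 kb. Of the cargo receptor and retrieval genes, MCFD2 and LMAN1 encode the subunits of 1 receptor for glycoprotein cargo and stood at opposite ends, at 11.6 ± 2.65 and 2.00 ± 0.437 kb (SD, n = 12 each). MCFD2 reached the 93.9 percentile of all tested genes and LMAN1 the 26.1 percentile. The KDEL receptors, which return escaped residents to the endoplasmic reticulum, had 7.67 ± 1.05 kb at KDELR1, 6.72 ± 0.935 kb at KDELR2 and 6.52 ± 1.44 kb at KDELR3 (SD, n = 12 each).

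Most of these genes had a peak over the start site in every library. The promoter table of RefSeq, on build GRCh38.p14, held 41 of the 49 genes, with a promoter running from 250 bp before to 50 bp after the start site. SRPRA, TRAM1, SPCS1, STT3B, RPN1, PDIA3, SEC24D and KDELR2 were the others. At least 50% of the promoter was covered in all 12 libraries for 36 of the 41 genes, or 87.8%, against 53.8% of the 13712 tested genes in that table. The share was 60.1% among tested genes with covered bases in every library. It was 93.7%, or 59 of 63, among the other pathway genes that are counted further below. Coverage of the 500 bp after the start site averaged 94.4% ± 0.920 in knockout cells with dexamethasone and 92.6% ± 0.639 in knockout cells with DMSO, over the 41 genes (SD, n = 3 each). In scramble cells it averaged 94.4% ± 1.33 with dexamethasone and 93.9% ± 1.71 with DMSO (SD, n = 3 each). Over all tested genes the 4 group means lay between 59.8% and 61.1%. Near full coverage little spread is possible, and the next bins varied more. From 500 to 1000 bp the 41 genes had 60.1% ± 0.849 in knockout cells with dexamethasone and 54.9% ± 4.81 in knockout cells with DMSO, and 57.2% ± 0.958 and 53.3% ± 8.00 in scramble cells with dexamethasone and with DMSO (SD, n = 3 each). From 1000 to 1500 bp they had 23.2% ± 1.09 in knockout cells with dexamethasone, 15.4% ± 1.74 in knockout cells with DMSO, 16.3% ± 0.825 in scramble cells with dexamethasone and 14.6% ± 2.23 in scramble cells with DMSO (SD, n = 3 each). All tested genes had group means of 14.0% to 15.9% in that bin, which was singled out after its values were seen and not tested.

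**Figure D2:**
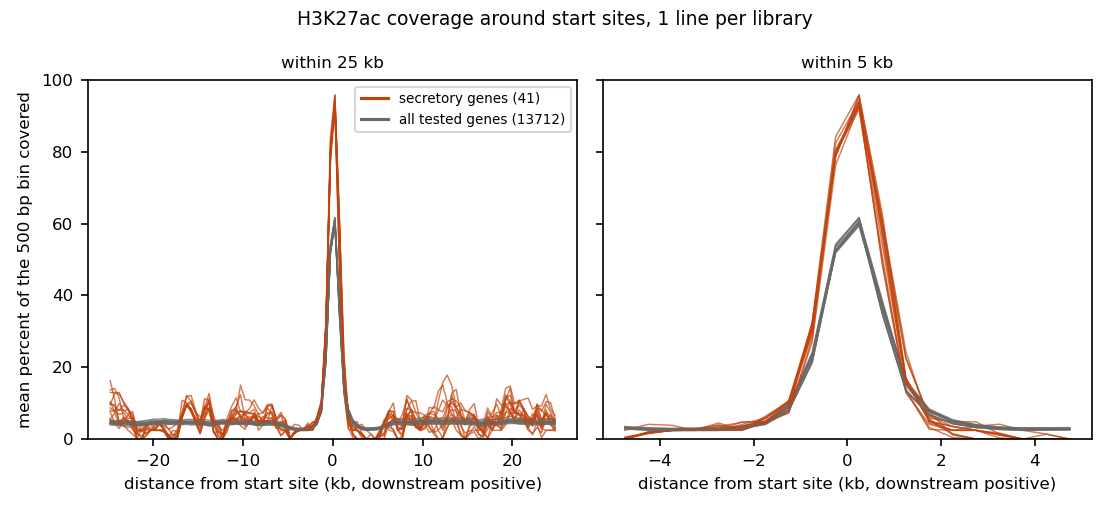
Mean percent of each 500 bp bin covered by H3K27ac peaks against the distance from the start site in kb, for the 41 secretory pathway genes in the promoter table and for the 13712 tested genes in it, 1 line per library. In the bin after the start site the 41 genes reach group means of 92.6% to 94.4%, where little spread is possible, against 59.8% to 61.1% for all tested genes. At larger distances the lines of the 41 genes, a smaller set, spread more widely than those of all tested genes.

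Within 2.5 kb of the start site, a division chosen after seeing the data, the 41 genes had a median of 1.45 kb covered and a median coefficient of variation of 8.64%. The rest of the window held a median of 3.90 kb with a median coefficient of variation of 27.8%. The outer part was the more variable one for 36 of the 40 genes with coverage in both parts. At SEC11A, for example, the inner part varied by 3.59% and the outer part by 17.8%, and at SRPRB the inner part varied by 5.10% and the outer part by 68.4%. The inner part was the more variable one at PDIA6 (118% against 28.7%), KDELR3 (132% against 21.7%), SEC61A1 (26.6% against 23.2%) and SRP14 (11.6% against 8.75%). This division was not made over all tested genes. Of the 500 bp bins that held a peak in any library, 291 of 1232 near the 49 genes, or 23.6%, held one in all 12 libraries, against 17.1% of 292998 such bins over chromosomes 1 to 22 and X. MZB1 had 15 of its 23 bins in all 12 libraries, and SRPRB had 2 of 31.

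Peaks over start sites differed in width. The peak over the MZB1 start had a median width of 5901.5 bp and that of SEC11C, the other catalytic subunit of signal peptidase, 3700 bp. SAR1B and SEL1L had narrow ones, of 845 and 887.5 bp. SEC61A1 and KDELR3 were the 2 genes whose listed promoter was at least 50% covered in no library. The nearest peak to the SEC61A1 start was a median of 154.5 bp away, while that of KDELR3 was a median of 6319 bp away. SSR2 reached this coverage in 3 libraries, PDIA6 in 5 and KDELR1 in 8. At PDIA6 the libraries divided by genotype in the 500 bp bin 0.23 kb downstream of the start site. That bin held a peak in 3 of 3 scramble libraries with dexamethasone and 2 of 3 with DMSO. In knockout cells it held one in 1 of 3 with dexamethasone and 0 of 3 with DMSO. The shares of bins that divide the genotypes with up to 1 exception each are given further below, at SEL1L. With any covered base counted, 38 of the 41 promoters were covered in every library.

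The promoter letters were searched on both strands for 5 motifs. The UPRE core, TGACGTGG, is a form of the sequence that XBP1 and ATF6 are known to bind. It was found in 5 of the 41 promoters, or 12.2%, in 10 of the 63 promoters of other pathway genes, or 15.9%, and in 0.835% of the 15812 promoters of the table. The 5 genes belong to 4 of the 9 role groups: SEC62 of the translocon, SRP19 of the signal recognition particle, SEC23A and SEC24A of the COPII coat, and KDELR3 of retrieval. The endoplasmic reticulum stress elements ERSE and ERSE-II end in the letters that start the reverse complement of the UPRE core, so these motifs overlap. Neither was found in the 41 promoters, against 0.120% and 0.0759% of all promoters, and 7 and 3 of the 63 promoters of other pathway genes held them. These matches are letters in a window and not binding sites.

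The stretches that hold the UPRE core are shown because this motif was the one of the 5 whose share in the 41 promoters stood furthest above that in all promoters. They are from RefSeq on GRCh38.p14, 5′ to 3′ along the gene's strand, with up to 40 bases on each side and the 8 matched bases in capitals. SEC23A and SEC24A hold the motif on the gene's strand, and the other 3 hold its reverse complement.
SEC62, chr3:169966750-169966806, plus strand: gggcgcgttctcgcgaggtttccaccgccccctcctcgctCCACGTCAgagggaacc
SRP19, chr5:112861135-112861222, plus strand: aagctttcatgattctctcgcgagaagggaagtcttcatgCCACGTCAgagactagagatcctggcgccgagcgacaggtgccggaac
SEC24A, chr5:134648566-134648653, plus strand: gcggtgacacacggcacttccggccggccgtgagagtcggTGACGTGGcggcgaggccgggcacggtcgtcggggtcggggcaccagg
SEC23A, chr14:39103232-39103279, minus strand: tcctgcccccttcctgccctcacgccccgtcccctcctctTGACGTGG
KDELR3, chr22:38468010-38468095, plus strand: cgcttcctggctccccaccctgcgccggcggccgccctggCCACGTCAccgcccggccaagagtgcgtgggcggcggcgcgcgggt

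With the start site as position 0, the match began at −17 in SEC62, at −112 in SRP19, at −179 in SEC24A, at −4 in SEC23A and at −46 in KDELR3. The SEC62, SRP19, SEC24A and SEC23A promoters were covered in all 12 libraries, and the KDELR3 promoter in none. The C/EBP motif TTGCNNAA was found in 3 of the 41 promoters, or 7.32%, against 8.37% of all promoters, at SEC61A1, MZB1 and SEC23A. The glucocorticoid response element, a palindrome with a spacer of any letters, was found in 0 of the 41 and in 0.247% of all promoters.

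Between CEBPB knockout and scramble cells, 2 of the 49 genes were called, a share no larger than that of all tested genes. Under DMSO, SEL1L was called higher and STT3B lower in knockout cells, that is 1 of 49 in each direction, where 3.78% of all tested genes were called higher and 3.54% lower (limma, adjusted p under 0.05). Averaged over both treatments the same genes were called, 1 higher and 1 lower, against 8.1% and 6.96% of all tested genes, and the averaged count of 2 was 5 without KO_Dex replicate 2 and 4 without SCR_DMSO replicate 3. Under dexamethasone limma called 0 of 49 between genotypes, against 4.25% higher and 3.38% lower of all tested genes, and 4 of the 49, or 8.16%, had an unadjusted p under 0.05, against 20.2% of all tested genes. Its count was 1 without SCR_DMSO replicate 1, SCR_DMSO replicate 2 or KO_Dex replicate 2. For fits without 1 library the shares of all tested genes called are not given here. The median log2 difference of the 49 genes was 0.04 under DMSO, 0.08 under dexamethasone and 0.04 averaged, and that of all tested genes was 0.01, −0.01 and 0.00. On average over treatments 30 of the 49 were higher and 19 lower, and for 47 of them the difference was smaller than 0.5 on the log2 scale. That division turned to 22 higher and 27 lower with strong peaks alone and also in the 5 kb window, with medians of −0.01 in each. The log2 differences here and below are knockout minus scramble or dexamethasone minus DMSO, on quantile-normalised log2(bp + 500), a scale that understates changes of short coverage. H3K27ac coverage does not check the deletion itself: CEBPB had 3.97 to 5.29 kb in knockout libraries and 4.09 to 6.14 kb in scramble libraries.

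STT3B encodes the catalytic subunit of the oligosaccharyltransferase that also glycosylates sites after translocation. Its covered length was 2.49, 2.48 and 2.82 kb in knockout cells with dexamethasone and 2.44, 1.87 and 1.98 kb in knockout cells with DMSO. In scramble cells it was 3.12, 3.17 and 2.77 kb with dexamethasone and 5.79, 3.73 and 5.34 kb with DMSO. Every knockout library with DMSO lay below every scramble library with DMSO, while under dexamethasone the genotypes overlapped. Under DMSO the log2 difference was −1.08 (SE 0.163, limma adjusted p = 0.00153) and on average over treatments −0.68 (SE 0.115, limma adjusted p = 0.00186). Under dexamethasone it was −0.28 (limma adjusted p = 0.395), and the difference between the drug responses of the genotypes did not pass the test (log2 0.80, SE 0.231, limma adjusted p = 0.663). With strong peaks alone STT3B was not called, at −0.21 under DMSO (limma adjusted p = 0.147) and −0.13 on average (limma adjusted p = 0.138), nor was the average in the 5 kb window (−0.36, limma adjusted p = 0.0618).

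A peak at the lower-coordinate end of STT3B was present in all 12 libraries. Upstream in coordinate, the bin at chr3:31522001-31522500 (GRCh38), 10.4 kb outside the gene span and in no gene of the table, held a peak in 6 of 6 scramble libraries and in 0 of 6 knockout libraries. The neighbours of STT3B were lower too. All 24 tested genes within 5 Mb had lower coverage in knockout cells on average over treatments, with a median log2 difference of −0.28, and 7 of them were called lower. The part of this stretch in the difference at STT3B was not tested.

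SEL1L differed the other way. It had 5.91, 5.16 and 4.54 kb in knockout cells with dexamethasone and 4.83, 4.67 and 6.51 kb in knockout cells with DMSO. Scramble cells had 4.15, 3.05 and 3.56 kb with dexamethasone and 4.00, 3.03 and 2.86 kb with DMSO. All 6 knockout libraries lay above all 6 scramble libraries, which held for no other of the 49 genes and for 4.83% of all tested genes. The opposite order, all 6 below, held for 0 of 49 and for 3.19% of all tested genes. The log2 difference was 0.58 under DMSO (SE 0.143, limma adjusted p = 0.0294) and 0.49 on average over treatments (SE 0.101, limma adjusted p = 0.0066). Under DMSO the call was lost without SCR_DMSO replicate 2 or 3 or any 1 of the 3 knockout DMSO libraries, with limma adjusted p up to 0.103. The average was called without each library in turn.

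The promoter peak of SEL1L was present in all 12 libraries and its inner part varied by 6.09%. The bin at chr14:81464501-81465000 (GRCh38), 69.1 kb downstream of the start site, 6.55 kb outside the gene span and in no gene of the table, held a peak in 5 of 6 knockout and 0 of 6 scramble libraries. Another at chr14:81470001-81470500, 1.05 kb outside the span, held one in 1 of 6 knockout and 5 of 6 scramble libraries. With up to 1 exception allowed per genotype, 9 bins near the secretory pathway genes were gained in knockout cells and 6 were lost. These were 0.731% and 0.487% of their bins with a peak, against 1.97% and 1.97% over the genome. Such bins were therefore rarer near these genes than over the genome. The 26 tested genes within 5 Mb of SEL1L divided evenly, 13 higher and 13 lower, with a median log2 difference of 0.01. With strong peaks alone SEL1L was not higher in knockout cells, at log2 −0.13 on average over treatments (limma adjusted p = 0.625).

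**Figure D3:**
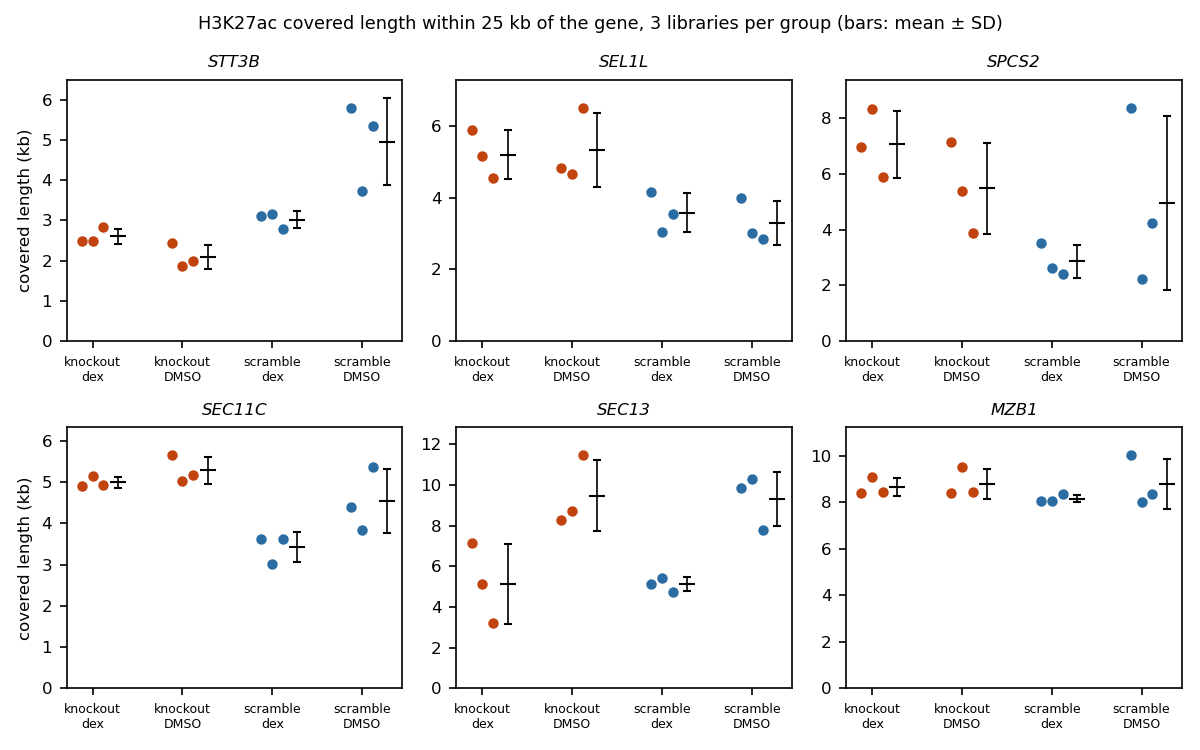
Covered length in kb for STT3B, SEL1L, SPCS2, SEC11C, SEC13 and MZB1, with 3 libraries per group as points and the mean ± SD beside them. Knockout points of SEL1L lie above its scramble points, the scramble DMSO points of STT3B lie above its other points, and the dexamethasone points of SEC13 lie below its DMSO points in each genotype.

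The other genes of smallest p in the genotype comparisons did not pass the test. SPCS2, a non-catalytic subunit of signal peptidase, had 6.97, 8.33 and 5.90 kb in knockout cells with dexamethasone, and the scramble libraries with the drug had 3.54, 2.62 and 2.43 kb. These groups did not overlap, and the log2 difference was 1.10 (SE 0.329, limma adjusted p = 0.0703). Under DMSO its libraries overlapped, at 7.17, 5.40 and 3.88 kb in knockout cells against 8.38, 2.24 and 4.23 kb in scramble cells. SPCS2 was called under dexamethasone without SCR_DMSO replicate 1 or 2, in the 100 kb window and in the fit of these 2 groups alone (limma adjusted p = 0.00622). SSR3 had −0.58 (SE 0.269, limma adjusted p = 0.256) and KDELR3 −0.45 (SE 0.207, limma adjusted p = 0.256) under dexamethasone, where they had the smallest p among genes with shorter coverage in knockout cells.

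Several genes near the threshold lay among neighbours that differed in the same direction. SEC11C and LMAN1 both lie on chromosome 18, where the median log2 difference of 232 tested genes was 0.31 on average over treatments. SEC11C had 4.91, 5.15 and 4.93 kb in knockout cells with dexamethasone, and the scramble libraries with the drug had 3.63, 3.02 and 3.63 kb. Its average log2 difference of 0.29 (SE 0.103, limma adjusted p = 0.0881) was below the median of 0.38 of the 31 tested genes within 5 Mb, of which 26 were higher. LMAN1 had 0.30 (SE 0.129, limma adjusted p = 0.165) beside a median of 0.38 for its 29 neighbours. RPN2, a subunit of oligosaccharyltransferase on chromosome 20, had −0.46 (SE 0.172, limma adjusted p = 0.106), and 88 of its 97 neighbours were also lower, with a median of −0.25. It was called without SCR_DMSO replicate 2 and in the 100 kb window. MCFD2 had 0.36 under DMSO (SE 0.139, limma adjusted p = 0.166), and its 40 neighbours had a median of 0.30 there. SEC24C, a cargo-binding subunit of the COPII coat, had 0.26 on average (SE 0.088, limma adjusted p = 0.0715) while its 77 neighbours had a median of −0.02. The part of the neighbourhood in these differences was not tested.

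Under DMSO 7 of 49 genes, or 14.3%, had all 3 knockout libraries above all 3 scramble libraries and 1, or 2.04%, had them below, where 13.1% and 9.08% of all tested genes did. Under dexamethasone 11 of 49, or 22.4%, lay wholly higher and 1, OSTC, wholly lower, against 17.7% and 8.9% of all tested genes. KDELR2 was among those wholly higher under both treatments, with 6.35 to 8.47 kb in the 6 knockout libraries and 5.78 to 6.80 kb in the 6 scramble libraries. These covered lengths were compared before normalisation. With strong peaks alone and after normalisation, KDELR2 was called lower in knockout cells under DMSO (log2 −0.37, limma adjusted p = 0.0369).

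At KDELR1 a single stretch differed completely. The 1000 bp at chr19:48378501-48379500 (GRCh38), 12.6 kb downstream of the start site, 3.08 kb outside the gene span and in no gene of the table, held peaks in 6 of 6 knockout and 0 of 6 scramble libraries. These were the 2 bins near the 49 genes gained in this way, 0.162% of their bins with a peak, against 0.651% over the genome. The STT3B bin was the only 1 lost in this way, 0.0812% against 0.889%. KDELR1 as a whole had a log2 difference of 0.20 on average over treatments (SE 0.100, limma adjusted p = 0.232), with 7.72 to 9.09 kb in knockout libraries and 5.91 to 8.74 kb in scramble libraries. It was called without normalisation (log2 0.25, limma adjusted p = 0.0423).

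By role, oligosaccharyltransferase had a median log2 difference of −0.24 between genotypes on average over treatments, with 4 of 6 genes lower. Its members STT3B, RPN2, OSTC and DDOST were on that side, and STT3B passed the test. Signal recognition particle genes had a median of 0.14 with 5 of 6 higher, and the translocon 0.11 with 5 of 9 higher, and 0 genes of either group passed the limma test. The COPII coat had −0.08, with 4 of 10 higher. These signs were the same without normalisation and when each library was scaled to its total, while the translocon had −0.01 in the 5 kb window. Folding genes had 0.02, and MZB1 had −0.01 with an interval from −0.19 to 0.16. Cargo receptor and retrieval genes had a median of 0.19 with 4 of 5 higher, and signal peptidase 0.07 with 4 of 5 higher. The receptor of the signal recognition particle had 0.06 with 2 of 2 higher, but −0.07 in the 5 kb window. Genes of these 3 groups were not called. The degradation group held SEL1L alone.

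**Figure D4:**
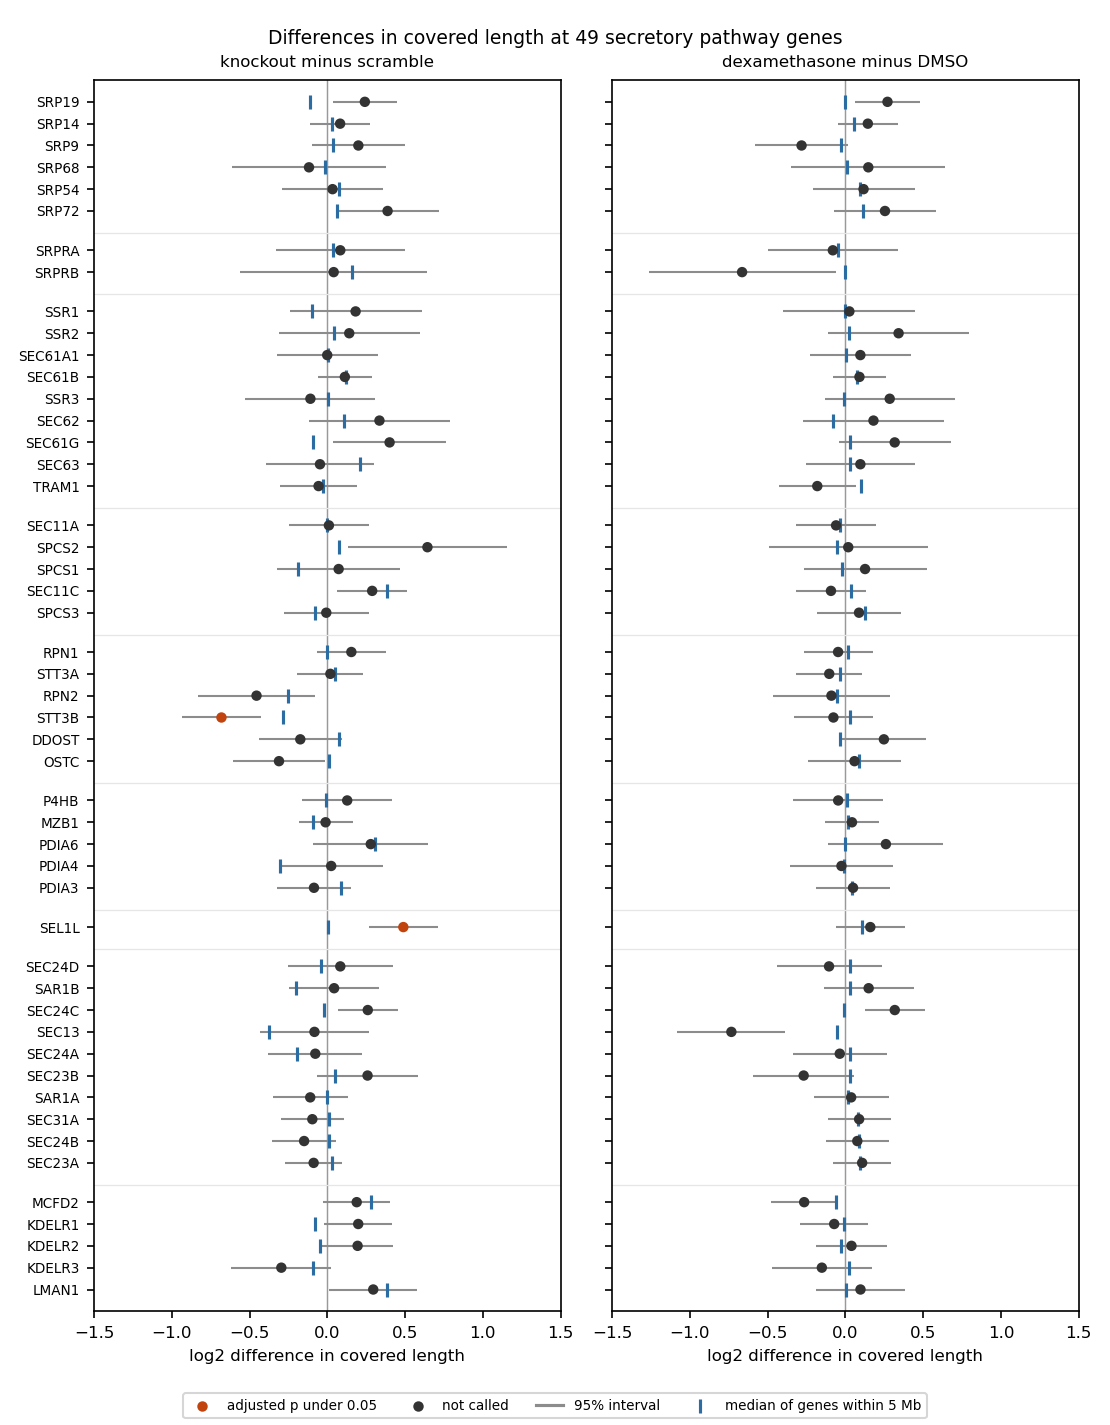
Log2 difference in covered length with its 95% interval for each of the 49 genes, averaged over treatments (knockout minus scramble, left) and over genotypes (dexamethasone minus DMSO, right), with the median of the tested genes within 5 Mb as a blue tick. STT3B at −0.68 and SEL1L at 0.49 are the genes past an adjusted p of 0.05, and SEC13 at −0.73 lies furthest from 0 on the right.

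Between dexamethasone and DMSO, 0 of the 49 genes were called, and nearly 0 of all tested genes were. Limma called 0 of 49 in scramble cells, where 0.0233% of all tested genes were called higher and 0% lower, and 7 of the 49, or 14.3%, had an unadjusted p under 0.05, against 7.66% of all tested genes. It called 0 of 49 in knockout cells, against 0.0175% higher and 0% lower, with 4 of the 49, or 8.16%, under an unadjusted 0.05, against 6.36% of all tested genes. Averaged over genotypes the count was 0 of 49, against 0.0408% higher and 0% lower, with 5, or 10.2%, under an unadjusted 0.05, against 8.68% of all tested genes. The median log2 difference of the 49 genes was 0.05 on average over genotypes, against 0.02 for all tested genes, with 30 genes higher and 19 lower. Without normalisation it turned to 18 higher and 31 lower, with medians of −0.06 for the 49 genes and −0.08 for all tested genes. The 95% interval of a gene reached a median of 0.41 to either side in 1 genotype and 0.29 in the average. Larger differences also failed the adjusted test, the largest being SRPRB at −1.07 in scramble cells (SE 0.387, limma adjusted p = 0.533). Limma found a difference between the drug responses of the 2 genotypes at 0 of 49 genes, against 0% higher and 0.0117% lower of all tested genes, with 3, or 6.12%, under an unadjusted 0.05, against 5.30% of all tested genes. Beside STT3B, the genes of smallest p in each direction there were SEC24D at 0.86 (SE 0.308, limma adjusted p = 0.854), SSR3 at −0.95 (SE 0.381, limma adjusted p = 0.894) and MCFD2 at −0.35 (SE 0.197, limma adjusted p = 0.946).

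SEC13, which forms the outer cage of the COPII coat with SEC31A, had the smallest p. Its covered length was 7.13, 5.12 and 3.20 kb in knockout cells with dexamethasone, against 8.28, 8.70 and 11.5 kb in knockout cells with DMSO. In scramble cells it was 5.14, 5.43 and 4.75 kb with dexamethasone, against 9.83, 10.3 and 7.77 kb with DMSO. All 6 dexamethasone libraries lay below all 6 DMSO libraries, which held for no other of the 49 genes and for 0.239% of all tested genes. All 6 above held for 0 of 49 and for 0.0875%. The log2 difference was −0.78 in knockout cells, −0.68 in scramble cells and −0.73 on average (SE 0.159), with an interval from −1.08 to −0.39 for the average. It did not pass the test over all genes (limma adjusted p = 0.160), nor did it under any alternative, where the adjusted p lay between 0.0706 and 0.930.

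The promoter peak of SEC13 was present in all 12 libraries. Its inner part averaged 1.25 kb with a coefficient of variation of 13.7%, and its outer part 6.01 kb with 42.8%. Of the 43 bins near SEC13 that held a peak in any library, 3 held one in all 12. A bin inside the gene, 8.86 kb downstream of the start site, held a peak in 1 of 6 dexamethasone and 5 of 6 DMSO libraries. A bin at the neighbouring gene GHRL, 31.4 kb downstream of the SEC13 start, held one in 0 of 6 dexamethasone and 5 of 6 DMSO libraries. With strong peaks alone the average difference at SEC13 was −0.07.

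SEC24C had the smallest p among genes with longer coverage under the drug. It had 10.6, 8.47 and 9.18 kb in knockout cells with dexamethasone, against 7.39, 8.66 and 8.67 kb in knockout cells with DMSO. Scramble cells had 8.78, 6.44 and 7.74 kb with dexamethasone, against 6.69, 6.32 and 6.27 kb with DMSO. The groups overlapped in each genotype, and the average log2 difference was 0.32 (SE 0.088, limma adjusted p = 0.302). SRP19 had 0.27 (SE 0.0945, limma adjusted p = 0.441) and MCFD2 −0.27 (SE 0.0983, limma adjusted p = 0.473) on average. In knockout cells MCFD2 had 11.7, 9.59 and 9.15 kb with dexamethasone, against 12.5, 16.5 and 16.4 kb with DMSO, and these groups did not overlap. SSR3, a subunit of the translocon-associated protein complex, had 5.51, 4.78 and 8.28 kb in scramble cells under dexamethasone, against 4.59, 2.78 and 3.88 kb under DMSO, with a log2 difference of 0.76 (SE 0.269, limma adjusted p = 0.522). STT3B had −0.48 in scramble cells (SE 0.163, limma adjusted p = 0.501).

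Covered lengths of dexamethasone libraries lay wholly below those of DMSO libraries for 6 of 49 genes in scramble cells and 4 in knockout cells, against 8.97% and 8.94% of all tested genes. They lay wholly above for 1 gene in each genotype, SSR3 in scramble and STT3B in knockout cells, against 2.07% and 3.76%. The mean covered total was also smaller with dexamethasone in both genotypes, and its part in these counts was not tested. Near the 49 genes 0 bins were gained or lost in 6 against 6 libraries under the drug, against 0.0249% gained and 0.00512% lost over the genome. With 1 exception allowed per group, 13 bins were lost, 1.06% of the bins with a peak against 0.243% over the genome, and 2 were gained, 0.162% against 0.157%. The lost bins lay near PDIA6, SRPRB, SEC13, SEC24D, SAR1B and SEC24A, TRAM1, SAR1A, SRPRA and P4HB, with 1 bin counted for both SAR1B and SEC24A. Adjoining bins are not separate sites. The 3 near PDIA6 formed 1 stretch of 1500 bp at the neighbouring gene ATP6V1C2, and the 2 near SRPRB formed 1 stretch of 1000 bp inside SRPRB. Bins near SEC13, SAR1A and SRPRA lay at the neighbouring genes GHRL, AIFM2 and FOXRED1. Another near SEC13 and those near SEC24D, SAR1B and TRAM1 lay inside these genes.

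The highest fold enrichment of a peak in a window, the authors' value for each broad peak, gave a second measure of these genes. It describes a whole broad peak and not the height of a summit, and its link to the width of the peak was not tested. Between genotypes under DMSO this measure called 1 of 49 genes higher and 0 lower, against 1.8% and 1.95% of all tested genes. Under dexamethasone limma called 0 of 49, against 2.44% higher and 2.66% lower, and 12, or 24.5%, were under an unadjusted 0.05, against 19.1% of all tested genes. Averaged over treatments it called 1 higher and 4 lower, against 4.77% and 5.04%. The called gene that was higher was RPN2 in both, at log2 0.23 under DMSO (SE 0.0445, limma adjusted p = 0.0148) and 0.15 on average (SE 0.0315, limma adjusted p = 0.0125). Its strongest peak had a fold enrichment of 5.34, 5.40 and 5.57 in knockout cells with DMSO, against 4.43, 4.73 and 4.58 in scramble cells with DMSO. Its covered length was on the opposite side, at log2 −0.57 under DMSO (SE 0.243, limma adjusted p = 0.212), though at 0.048 with strong peaks alone.

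The 4 genes called lower in fold enrichment on average over treatments were SRP19, SEC11C, MCFD2 and RPN1. SRP19 had a log2 difference of −0.15 (SE 0.0323, limma adjusted p = 0.0124), with fold enrichments of 5.39 to 6.14 in the 6 knockout libraries and 6.31 to 7.15 in the 6 scramble libraries. SEC11C had −0.18 (SE 0.0385, limma adjusted p = 0.0140), with 4.35 to 5.40 in knockout and 5.47 to 5.90 in scramble libraries. The share of all tested genes whose fold enrichments separate the genotypes like this was not counted. MCFD2 had −0.16 (SE 0.0369, limma adjusted p = 0.0190) and RPN1, which encodes another subunit of oligosaccharyltransferase, −0.10 (SE 0.0272, limma adjusted p = 0.0484). The covered lengths of these 4 genes had average log2 differences of 0.24, 0.29, 0.19 and 0.15 and were not called. Without normalisation 8 of the 49 were called lower and 0 higher, RPN2 among those not called, and the division over all tested genes moved to 547 higher and 1541 lower, where it was 818 higher and 864 lower. Under dexamethasone 7 of the 49 were called lower without normalisation, and all tested genes divided into 276 higher and 904 lower, where they were 419 and 457. For dexamethasone against DMSO limma called 0 of 49 by fold enrichment in scramble cells, in knockout cells or in their average. Under an unadjusted 0.05 were 2, 4 and 3 of them, or 4.08%, 8.16% and 6.12%. Of all tested genes 5.75%, 7.90% and 7.85% were. The shares of all tested genes called were 0.0875% higher and 0.0875% lower in scramble cells, 0.0408% and 0.0525% in knockout cells, and 0.0933% and 0.0875% in the average.

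Other genes of the pathway were counted from a list of 68, of which 67 were tested, with a median covered length of 5.74 kb. On average over treatments 5 of the 67 were called higher and 3 lower in knockout cells, against the 8.1% and 6.96% of all tested genes given above. The higher ones were the co-chaperone DNAJC3 at log2 0.91 (SE 0.153), the transcription factor CREB3L2 at 0.56 (SE 0.0801), the cargo receptor SURF4 at 0.37 (SE 0.099), the degradation channel protein DERL1 at 0.33 (SE 0.088) and the stress sensor ERN1 at 0.28 (SE 0.053). The lower ones were the COPI coat gene ARCN1 at −0.75 (SE 0.204), the HSPA5 exchange factor SIL1 at −0.73 (SE 0.145) and the co-chaperone DNAJB9 at −0.61 (SE 0.0989). Under DMSO 4 of the 67 were called higher and 2 lower, against 3.78% and 3.54% of all tested genes. Under dexamethasone 2 of the 67, CREB3L2 and DNAJC3, were called higher and 0 lower, against 4.25% and 3.38%. Limma called 0 of the 67 in the dexamethasone comparisons, with 2 under an unadjusted 0.05 in scramble cells and 3 in knockout cells, against the 7.66% and 6.36% of all tested genes given above.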

How the data were processed

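Per the labels' protocols, each CUT&RUN assay used 100000 cells and an antibody against acetylated H3 lysine 27. Per the submitters' processing notes, the build was hg38 and Bowtie2 2.4.2 and MACS3 3.0 were used; no control library is given in the sources used here. The deposited files are 12 broad peak lists, 1 per library. The deposited start and end of a peak are 0-based positions. The deposited score is an integer, the deposited signal is a ratio (fold enrichment over background), and −log10 p and −log10 q stand beside them in the deposited lists. The lists reach down to a −log10 q of 0.523 to 0.535. There are no read counts, and the depth is unknown.

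Use was made of the peaks of chromosomes 1 to 22 and X; 213 to 296 per library lay elsewhere. Bases under peaks were summed within 25 kb of each gene span of the RefSeq table (GRCh38.p14), without strand. The 17152 genes covered in at least 3 libraries were tested as log2(bp + 500), quantile-normalised, with limma 3.58.1 in R 4.3.3 (trend, robust, all 12 libraries, 8 residual degrees of freedom), two-sided, for 7 contrasts. The Benjamini-Hochberg adjustment ran over all genes tested, with a threshold of 0.05. The highest fold enrichment in a window was tested likewise as log2(highest fold enrichment + 1). Promoters, 500 bp bins (a peak over at least 250 bp), motifs and the median of genes within 5 Mb are descriptions.

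The 49 genes, the role groups, the other lists and the tests were chosen with earlier results of these data known. Log2 differences are given for genes called in any contrast, the 2 of smallest p in each direction per contrast, and the highest and lowest of each role group; of the other pathway genes only called ones are named, at most 5 per contrast. The interval arithmetic and the limma fit were tested on simulated data. Replicate numbers 1 to 3 follow the listing order within each group, since the titles hold no such number, and the main fit used no pairing. The deviations of same-numbered libraries had correlations between −0.08 and 0.10, and those of other numbers between −0.10 and 0.11. Between the 2 DMSO groups same-numbered libraries had 0.07, 0.05 and 0.07, and other numbers −0.05 to −0.02. In each other pair of groups the same-numbered values had both signs. Whether libraries were paired was not given. Python 3.11.15, NumPy 2.4.6, pandas 2.3.3 and Matplotlib 3.10.9 were used.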

Additional observations from a re-analysis of the deposited data

How the results depend on the processing

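The counts of members called by covered length depended on the window, the peaks and the libraries used. For knockout under DMSO the count of 2 became 3 with a window of 100 kb (STT3B, SEC24B and MCFD2), or 6.12% against 12.9% of all genes tested there. It stayed at 2 with strong peaks alone but for other genes (SAR1B and KDELR2, both lower), or 4.08% against 7.65%. It became 1, or 2.04%, with a window of 5 kb (against 6.02%), without normalisation (6.09%), with the replicate block (6.69%) and in the fit of only the groups compared (5.22%). It lay between 1 and 2 when each library was left out in turn. For knockout under dexamethasone the count of 0 became 6 with a window of 100 kb, or 12.2% against 13.6% of all genes tested there. It became 3 with strong peaks alone, or 6.12% against 9.22%. It became 1, or 2.04%, with the replicate block (against 6.98%) and in the fit of only the groups compared (7.26%), and lay between 0 and 1 when each library was left out. The libraries whose absence gave 1 there were SCR_DMSO replicate 1 or 2 (SPCS2) and KO_Dex replicate 2 (KDELR3). For knockout averaged over treatments the count of 2 became 1 with a window of 5 kb, or 2.04% against 11.7% of all genes tested there. It became 8 with a window of 100 kb, or 16.3% against 24.8%, 5 with strong peaks alone, or 10.2% against 16.2%, and 5 without normalisation, or 10.2% against 13.3%. It lay between 2 and 5 when each library was left out, with 4 without SCR_DMSO replicate 3 and 5 without KO_Dex replicate 2. For fits without 1 library the shares of all genes called are not given here. For dexamethasone in knockout cells the count of 0 became 1 with strong peaks alone (SRP68), where 0.703% of all genes tested were called. For the highest fold enrichment without normalisation, the count of 1 became 0 under DMSO. There 0 became 7 under dexamethasone (14.3% against 6.88% of all genes) and 5 became 8 on average (16.3% against 12.2%). Why these counts moved was not tested.

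STT3B was called lower under DMSO in 21 of 22 alternatives and on average in 19 of 21; strong peaks alone gave −0.21 (limma adjusted p = 0.147) and −0.13 (0.138), and the 5 kb window −0.36 on average (0.062). SEL1L was called higher under DMSO in 11 of 22 alternatives and on average in 19 of 21; the 100 kb window gave 0.23 on average (limma adjusted p = 0.0802), and strong peaks alone turned its sign, as given below. With the replicate block SEL1L was not called under DMSO (limma adjusted p = 0.0508) and SPCS2 was called higher under dexamethasone (limma adjusted p = 0.0494); the block changed no other of the calls. In the 100 kb window SEC24B was called lower, at −1.01 on average. Strong peaks alone turned the sign of SEC13 (0.043), STT3B (0.049) and SSR3 (−0.045) for dexamethasone in scramble cells, of MCFD2 (0.0054), SEC24C (−0.038) and SRP19 (−0.0496) in knockout cells, and of SRP19 (−0.028) and MCFD2 (0.012) on average. They also turned that of SEL1L (−0.11) and RPN2 (0.048) for knockout under DMSO, SSR3 (0.0198) and KDELR3 (0.069) under dexamethasone, SEL1L (−0.13) on average, and SSR3 (0.15) in the difference of drug responses. The 5 kb window turned SSR3 (0.087) in that difference and SEC24C (−0.076) for knockout on average. Of 610 values of named genes under alternatives, 564 kept their direction and side of the threshold, 16 lost a call, 14 gained a call and 16 turned sign. Most of the 34 results behind these values were not called in the main fit. For those, staying uncalled counted as kept, so the total says little about the called genes. The promoter counts stayed at 36 to 38 of 41. Without normalisation the median of all tested genes moved by −0.12 for dexamethasone in scramble cells. With the depth unknown, a peak missing from a list may be a peak below the caller's threshold.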
